A study of Mus musculus with 12 samples.

Results

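The Cyp4 genes encode cytochrome P450 enzymes that hydroxylate fatty acids and related lipids, and 10 of them were followed here across mouse livers taken with or without a distant mammary tumour and with or without the gene Mtdh. They were chosen by name: 6 of the Cyp4a subfamily (Cyp4a10, Cyp4a14, Cyp4a31, Cyp4a32, Cyp4a12a and Cyp4a12b), 3 of the Cyp4f subfamily (Cyp4f13, Cyp4f14 and Cyp4f15), and Cyp4v3. These are 10 of the 22557 genes in the deposited table. The family was picked with its values in tumour-bearing and tumour-free wild-type (WT) livers already known, so that comparison is given below as a description, without a test.

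Omega-hydroxylation adds a hydroxyl group at or near the methyl end of a fatty acid. Alcohol and aldehyde dehydrogenases then turn the product into a dicarboxylic acid, which peroxisomes shorten by beta-oxidation, so the pathway is a side route to mitochondrial fat burning in hepatocytes. In mouse liver Cyp4a10 and Cyp4a14 are classic targets of PPARα, a fatty acid-sensing nuclear receptor that binds DNA with the receptor RXR, and enzymes of the Cyp4f subfamily also inactivate leukotrienes and other eicosanoids.

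Whole livers came from 12 female mice of matched age, and no cell type was selected. They fell into 4 groups of 3 different mice: WT or Mtdh knockout (KO), each either free of a tumour or carrying an allograft of Py8119, a mouse mammary tumour cell line. Mtdh encodes metadherin, a protein studied in tumour growth and spread. The labels do not say in which cells or at what age Mtdh was deleted, nor the strain, the age, or how long the tumours had grown.

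Values are reads per gene divided by a size factor for each library, called signal here, so levels of 1 gene can be compared between libraries. Depth, estimated from the spacing of low values, was 12700000 reads in KO tumour-bearing replicate 1 and 25700000 to 43000000 in the other 11 libraries. That shallowest library had 14899 genes above 0, against 17772 to 20365 elsewhere, and in KO tumour-free replicate 3 small nucleolar RNAs took 4.84% of the signal, against at most 1.23% elsewhere. Mtdh signal was 4892 ± 527 and 4982 ± 914 in WT livers and 549 ± 100 and 589 ± 412 in KO livers, without and with a tumour (SD, n = 3), with no overlap between the genotypes. Albumin took 6.12% to 12.3% of the signal, and all 6 hepatocyte markers passed the filter on low values.

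The coding sequences show which members a short read can tell apart. A stretch of 60 bases around the codon of the haem-binding cysteine, the residue that holds the iron of every P450, was taken from the GENCODE M21 transcripts of each member (mouse build GRCm38). It is printed for all members but Cyp4f13 and Cyp4a12b, whose stretch was the same as that of Cyp4a12a. Letters are in lower case, with capitals at each base that differs from Cyp4a10.
Cyp4a10: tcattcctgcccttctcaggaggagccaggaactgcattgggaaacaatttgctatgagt
Cyp4a31: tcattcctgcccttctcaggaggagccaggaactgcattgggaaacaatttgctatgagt
Cyp4a32: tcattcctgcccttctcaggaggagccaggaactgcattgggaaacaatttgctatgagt
Cyp4a12a: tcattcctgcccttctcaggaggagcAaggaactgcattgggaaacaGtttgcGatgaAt
Cyp4a14: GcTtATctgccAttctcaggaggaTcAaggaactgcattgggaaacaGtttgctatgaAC
Cyp4f14: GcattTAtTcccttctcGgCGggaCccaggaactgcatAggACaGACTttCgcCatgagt
Cyp4f15: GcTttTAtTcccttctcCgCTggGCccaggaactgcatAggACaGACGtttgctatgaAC
Cyp4v3: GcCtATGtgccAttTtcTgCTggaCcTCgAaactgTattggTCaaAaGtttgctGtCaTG

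In this stretch Cyp4a10, Cyp4a31 and Cyp4a32 were identical, Cyp4a14 differed from them at 10 bases, Cyp4f14 at 17 and Cyp4v3 at 23. Over the whole coding sequence Cyp4a10 was 96.6% identical to Cyp4a31 and 97.2% to Cyp4a32, and 19.6% and 34.6% of its 50-base windows occurred unchanged in those genes. Cyp4a14 was 76.7% identical to Cyp4a10 and shared none of its 50-base windows. Cyp4a12a and Cyp4a12b were 98.5% identical. The sources used here do not say how reads that fit several genes were assigned, and the values of Cyp4a31, Cyp4a32, Cyp4a12a and Cyp4a12b are therefore uncertain. The sum of Cyp4a10, Cyp4a31 and Cyp4a32 is given beside the single genes for that reason.

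**Figure D1:**
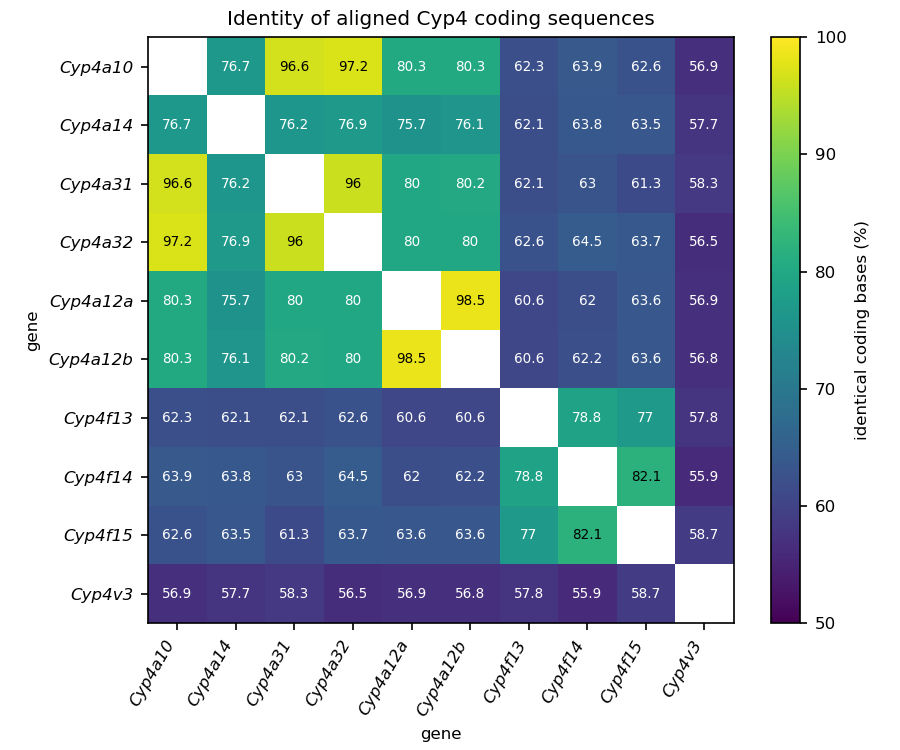
Percent of aligned coding bases that are identical for each pair of the 10 Cyp4 genes (both axes list the genes; colour runs from 50 to 100%). The Cyp4a10, Cyp4a31 and Cyp4a32 block lies at 96% to 97.2%, the Cyp4f genes at 77% to 82.1% among themselves, and Cyp4v3 at 55.9% to 58.7% against the Cyp4f genes.

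The members lie in clusters (coordinates of mm39, the build of the table). On chromosome 4, Cyp4a12a spans 115156243 to 115190012, Cyp4a12b 115268821 to 115296231, Cyp4a14 115343397 to 115353339, Cyp4a10 115375461 to 115390846, Cyp4a31 115420846 to 115436212 and Cyp4a32 115458166 to 115478799. On chromosome 17, Cyp4f15 spans 32904601 to 32922326, Cyp4f14 33124044 to 33136316 and Cyp4f13 33143662 to 33166376. Cyp4v3 stands alone on chromosome 8, from 45757981 to 45786253.

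Levels of different genes were compared as signal per kilobase of the longest annotated transcript. In WT livers without a tumour the order was Cyp4a14 with 9735 ± 4816, Cyp4a10 with 5973 ± 2659, Cyp4f14 with 3869 ± 390, Cyp4v3 with 1755 ± 136, Cyp4f15 with 1056 ± 51.2 and Cyp4f13 with 335 ± 38.6 per kilobase (SD, n = 3). Cyp4a14, Cyp4a10 and Cyp4f14 were neighbours whose SDs overlapped, whereas those of Cyp4f14, Cyp4v3, Cyp4f15 and Cyp4f13 did not. These SDs are between livers and ignore that the genes were measured in the same libraries. Within each tumour-free WT library the order was Cyp4a14, Cyp4a10, then Cyp4f14. Cyp4a31 and Cyp4a32 came last with 65.9 ± 68.4 and 62.7 ± 41.9, and did not differ beyond their spread. In WT livers with a tumour Cyp4f14 had the highest mean with 2053 ± 357 per kilobase, not beyond the spread of Cyp4a14 with 1405 ± 1406, followed by Cyp4v3 with 1213 ± 67.2, Cyp4f15 with 897 ± 149 and Cyp4a10 with 423 ± 361. KO livers without a tumour kept the tumour-free WT order down to Cyp4f13, with 8751 ± 299 for Cyp4a14 and 4833 ± 324 for Cyp4a10. In KO livers with a tumour Cyp4f14 was first again with 3402 ± 1458, and Cyp4a14 with 2896 ± 1461 did not differ from it beyond the spread.

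**Figure D2:**
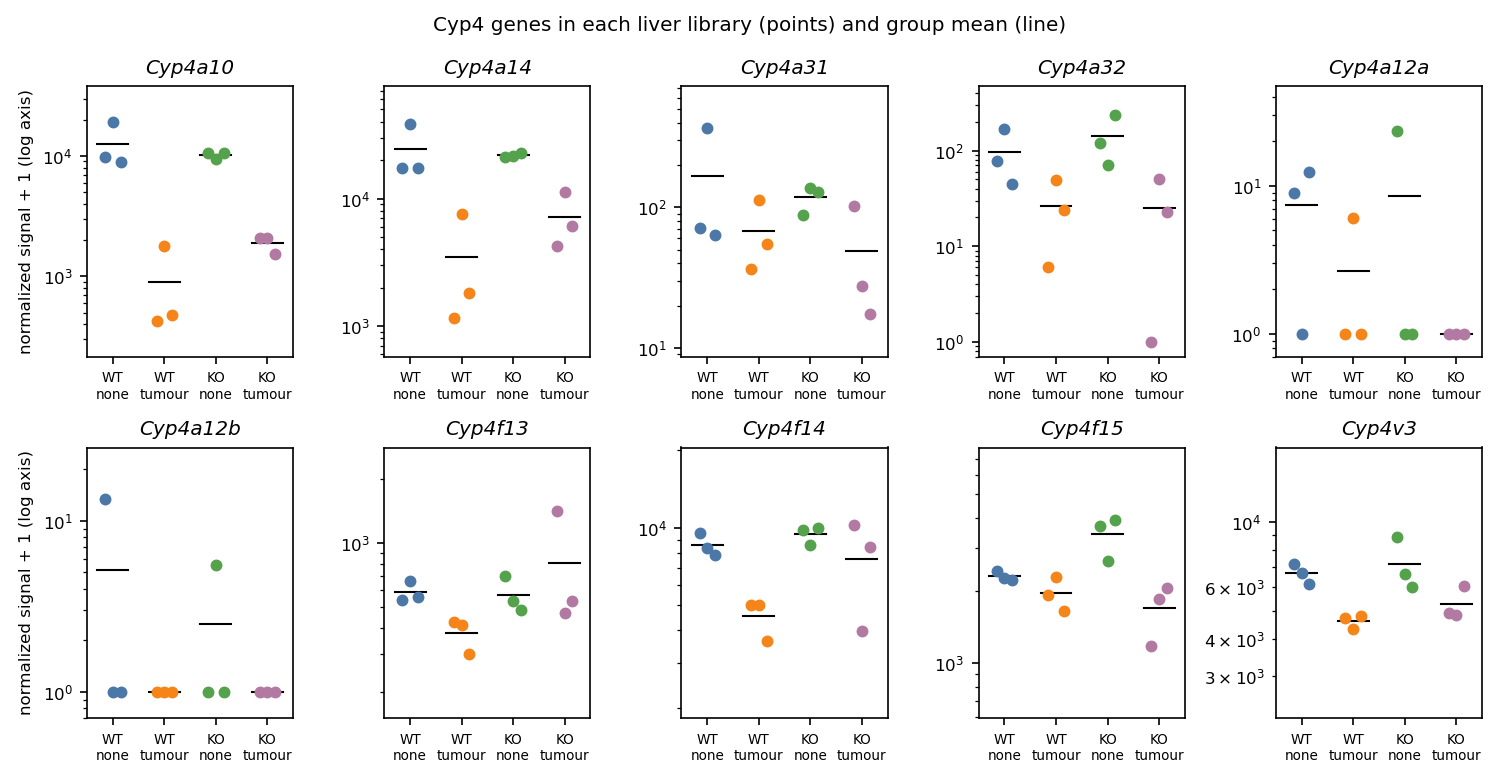
Normalized signal plus 1 on a log axis (vertical, a separate range for each gene) of the 10 Cyp4 genes in WT and KO livers without and with a tumour; points are single libraries and lines are group means. Cyp4a10 and Cyp4a14 lie lower in every tumour-bearing library than in any tumour-free library, and Cyp4a12a and Cyp4a12b are at or near 0 in most libraries.

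Cyp4a10 and Cyp4a14, the PPARα-responsive fatty acid omega-hydroxylases of the mouse liver, held most of the family's signal without a tumour. Cyp4a10 had signals of 9815, 19053 and 8923 in WT livers without a tumour and 429, 1770 and 477 with one. In KO livers it had 10625, 9404 and 10546 without a tumour and 2081, 2085 and 1546 with one. The tumour-bearing and tumour-free libraries did not overlap in either genotype, and of the 6 tumour-bearing livers the lowest were WT replicates 1 and 3.

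Cyp4a14 followed the same order. Its signals were 17374, 38179 and 17340 in tumour-free WT livers, 1148, 7539 and 1834 in tumour-bearing WT livers, 21335, 21491 and 22699 in tumour-free KO livers, and 4261, 11301 and 6127 in tumour-bearing KO livers. WT tumour-bearing replicate 2 was the highest of its group for both genes, and its Cyp4a14 value lay within the range of the KO tumour-bearing livers. WT tumour-free replicate 2 was likewise the highest library for both genes.

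In WT livers the difference between the tumour-bearing and the tumour-free group was −4.06 ± 0.43 (SE) on the log2(value + 1) scale for Cyp4a10, which is 16.6-fold lower, and −3.17 ± 0.55 for Cyp4a14, which is 8.98-fold lower. These were values by which the family was chosen, so no p-value is given for a member. In limma, a linear model fitted across all 17380 genes that passed the filter, 2 of the 8 members in the fit (Cyp4a10 and Cyp4a14) were among the 0.247% of genes called lower. That count describes the choice of the family, and nothing is read from it. WT groups did not overlap for 5 of the 8, all lower with a tumour (Cyp4a10, Cyp4a14, Cyp4f13, Cyp4f14 and Cyp4v3), beside 8.05% of all genes. This count, too, describes the choice of the family, and nothing is read from it. Just outside that count, Cyp4a32 and Cyp4f15 overlapped in single libraries.

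In KO livers the same comparison gave differences of −2.43 ± 0.43 (SE) for Cyp4a10 (limma adjusted p = 0.152) and −1.71 ± 0.55 for Cyp4a14 (limma adjusted p = 0.327), each lower in 3 of 3 tumour-bearing livers than in any tumour-free one. Neither passed the threshold of 0.05, and in this comparison limma called none of the 17380 genes lower (0%) or higher. Cyp4a10 passed it with the 6 KO libraries fitted alone (adjusted p = 0.00467), with limma's library weights (adjusted p = 0.00667) and without WT tumour-bearing replicate 2 (adjusted p = 0.00481). That library is no part of the KO comparison but enters the shared estimate of the spread, and the fold change did not move without it. Over all alternatives the adjusted p of Cyp4a10 ran from 0.00467 to 0.668 and its fold change from −2.59 to −2.27.

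Among tumour-bearing livers KO was higher than WT by 1.40 ± 0.43 (SE) for Cyp4a10 (limma adjusted p = 0.204) and by 1.40 ± 0.55 for Cyp4a14 (limma adjusted p = 0.276), on the log2 scale. These differences did not pass the test, and the groups overlapped in WT replicate 2 for both genes. Without that library the differences were 2.06 (limma adjusted p = 0.00944) and 2.20 (limma adjusted p = 0.0244), and both passed. Without WT replicate 1 that of Cyp4a14 was 0.84 (limma adjusted p = 0.620). They also passed with library weights (adjusted p = 0.00665 and 0.00742). Over all alternatives the adjusted p ran to 0.606 for Cyp4a10 and to 0.647 for Cyp4a14. This comparison shares its WT libraries with the one by which the family was picked.

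Without a tumour the genotypes differed by −0.22 ± 0.43 (SE, 95% interval −1.14 to 0.69) for Cyp4a10 and by −0.05 ± 0.55 (95% interval −1.22 to 1.12) for Cyp4a14, KO minus WT, with a limma adjusted p of 1 for both. The sign depended on WT tumour-free replicate 2: without it the differences were 0.12 and 0.33. The 3 KO livers lay close together, with a coefficient of variation of 6.70% for Cyp4a10 and 3.42% for Cyp4a14, against 44.5% and 49.5% in WT.

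The interaction asks whether the tumour difference was the same in both genotypes. It contains the WT comparison by which the family was picked, so its sign and size are not independent of that choice. The interaction was 1.62 ± 0.60 (SE) for Cyp4a10 and 1.45 ± 0.77 for Cyp4a14 on the log2 scale, less of a drop in KO. Neither passed (limma adjusted p = 0.859 for both). Without WT tumour-bearing replicate 2 the values were 2.28 (limma adjusted p = 0.0918) and 2.25 (limma adjusted p = 0.337), and without WT tumour-bearing replicate 1 that of Cyp4a14 was 0.89 (limma adjusted p = 0.964).

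**Figure D3:**
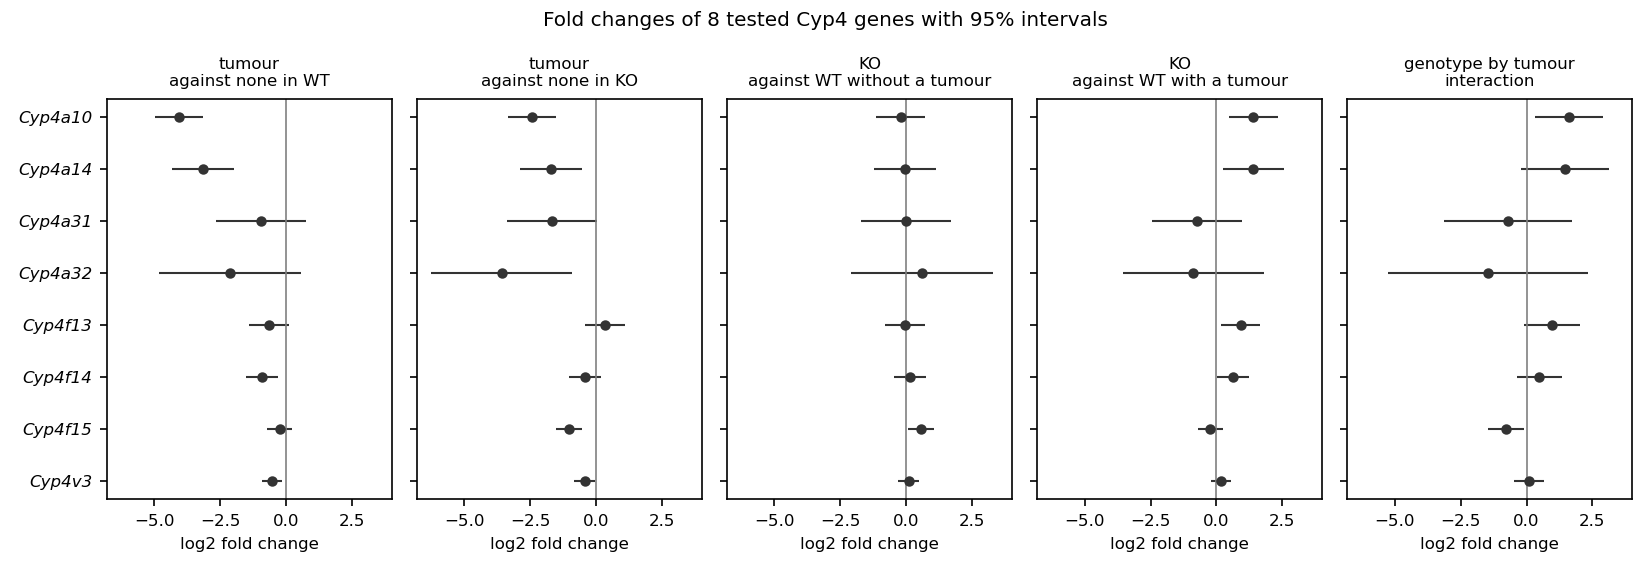
Log2 fold changes (horizontal axis, on the log2(value + 1) scale) of the 8 tested Cyp4 genes (rows) in 5 comparisons; points are limma estimates and bars their 95% intervals. Cyp4a10 and Cyp4a14 lie left of 0 for the tumour in both genotypes, and right of 0 for KO against WT with a tumour, at 1.40 each.

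The balance between Cyp4a14 and Cyp4a10 also differed with the tumour. The ratio of their signals within a library was 1.91 ± 0.12 (SD, n = 3) in tumour-free WT livers and 3.596 ± 0.82 in tumour-bearing WT livers. In KO livers it was 2.15 ± 0.14 in the tumour-free and 3.81 ± 1.69 in the tumour-bearing group. In WT all 3 tumour-bearing ratios (2.68, 4.26 and 3.85) were above all 3 tumour-free ones, whereas KO tumour-bearing replicate 1, the shallowest library, had a ratio of 2.05, within the tumour-free range of 2.01 to 2.29. No test was made of the ratio.

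Summed over the near-identical Cyp4a10, Cyp4a31 and Cyp4a32, the signal was 12858 ± 5843 and 984 ± 820 in WT livers without and with a tumour, and 10450 ± 729 and 1976 ± 340 in KO livers (SD, n = 3). The group means of the sum had the same order as those of Cyp4a10. A different split of reads among these 3 genes would leave the sum as it is. Reads dropped or given to other genes would not. Tumour-free WT lay above tumour-free KO only through WT replicate 2, at 19583 against 9960 and 9030 in replicates 1 and 3. All 10 members together took 0.186% ± 0.062 of the signal in tumour-free WT livers, 0.0572% ± 0.0236 in tumour-bearing WT livers, 0.172% ± 0.0104 in tumour-free KO livers and 0.0843% ± 0.00616 in tumour-bearing KO livers. The Cyp4a members made up 65.2% of that in tumour-free and 24.9% in tumour-bearing WT livers, and 61.1% and 37.5% in the corresponding KO livers.

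**Figure D4:**
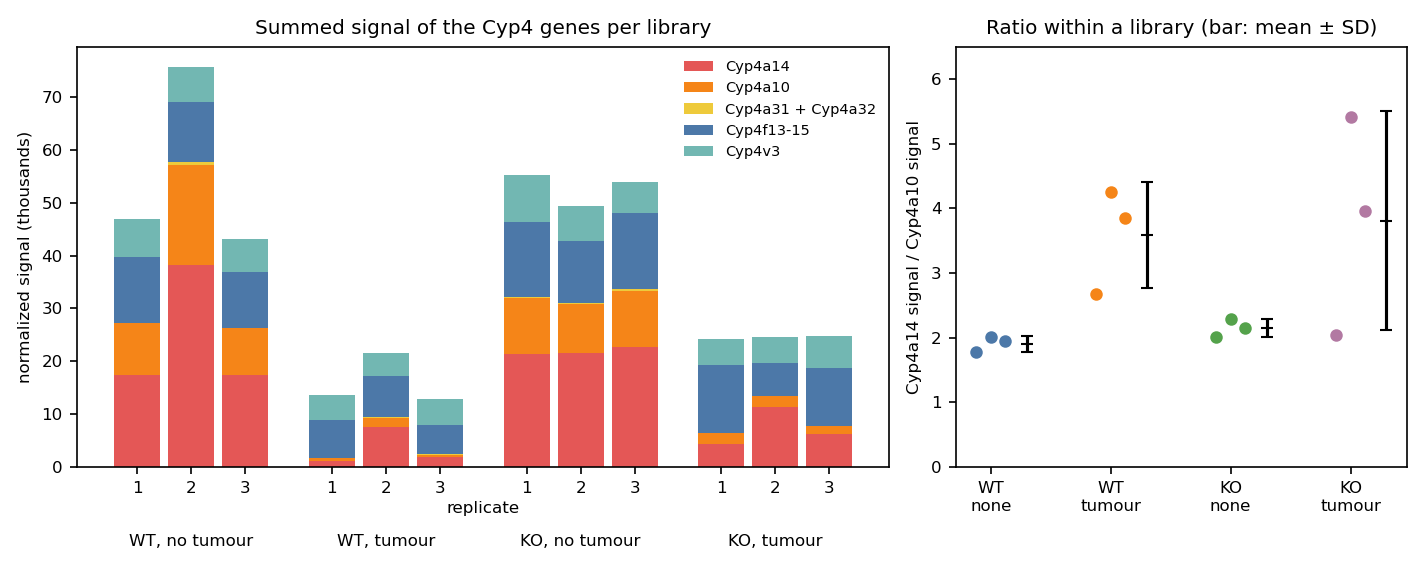
Left, summed normalized signal of the Cyp4 genes (vertical axis, scaled as its label states) for each replicate library, stacked by gene; right, the ratio of Cyp4a14 to Cyp4a10 signal in each library (points) with mean and SD (bars, n = 3). The red and orange Cyp4a blocks shrink in every tumour-bearing library, and WT tumour-bearing replicate 2 keeps the most of its group.

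Cyp4a31 and Cyp4a32, the near copies of Cyp4a10, had low signals. Cyp4a31 had 69.6, 363 and 62.9 in tumour-free WT livers, 35.3, 112 and 53.8 in tumour-bearing WT livers, 87.4, 135 and 128 in tumour-free KO livers and 101, 26.7 and 16.3 in tumour-bearing KO livers. Its groups overlapped in every comparison, and the differences were −0.96 ± 0.80 (SE) for the tumour in WT and −1.66 ± 0.80 in KO (limma adjusted p = 0.399). The WT value was −0.14 without tumour-free replicate 2 and −0.58 without tumour-bearing replicate 1.

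Cyp4a32 had 75.9, 168 and 44.0 in tumour-free WT livers, 5.04, 47.8 and 23.1 in tumour-bearing WT livers, 119, 69.8 and 235 in tumour-free KO livers and 0, 49.9 and 21.7 in tumour-bearing KO livers. Every tumour-bearing KO liver lay below every tumour-free one, with a log2 difference of −3.59 ± 1.25 (SE; limma adjusted p = 0.340). The value of 0 was in the shallowest library, where 3 reads correspond to a signal of 7.40, and without that library the difference was −1.89. The WT difference was −2.12 ± 1.25, or −1.29 without WT tumour-bearing replicate 1. Between genotypes the difference was 0.59 ± 1.25 in tumour-free livers (limma adjusted p = 1) and −0.87 ± 1.25 in tumour-bearing ones (limma adjusted p = 0.749), and leaving out single libraries moved the former between 0.14 and 1.10 and the latter between −2.01 and 0.82, the highest value being without the shallowest library.

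Cyp4a12a and Cyp4a12b, known as male-biased omega-hydroxylases of mouse liver and kidney, were close to absent from these female livers and did not pass the filter on low values. Cyp4a12a was above 0 in 4 of 12 libraries, with 7.90 and 11.4 in tumour-free WT livers, 5.04 in a tumour-bearing WT liver and 22.7 in a tumour-free KO liver. Cyp4a12b was above 0 in a tumour-free WT liver with 12.4 and a tumour-free KO liver with 4.51. Both were at 0 in all 3 tumour-bearing KO livers, and 3 reads corresponded to signals of 1.95 to 7.40, so no difference between groups was detectable at this depth.

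Of the Cyp4f members, Cyp4f14, the most abundant of them and an omega-hydroxylase of leukotriene B4 and fatty acids, had 9549, 8369 and 7859 in tumour-free WT livers and 5010, 5024 and 3644 in tumour-bearing ones. In KO it had 9857, 8596 and 10034 without a tumour and 10268, 3970 and 8432 with one. The WT groups did not overlap and differed by −0.93 ± 0.28 (SE) on the log2 scale, whereas in KO tumour-bearing replicates 2 and 3 lay below every tumour-free liver and replicate 1 above them.

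The KO tumour difference of Cyp4f14 was −0.44 ± 0.28 (limma adjusted p = 0.493), with −0.71 without KO tumour-bearing replicate 1 and −0.026 without replicate 2. With a tumour KO was higher than WT by 0.64 ± 0.28 (limma adjusted p = 0.334), with 0.36 and 1.05 without the same 2 libraries in turn. The genotypes differed by 0.15 ± 0.28 without a tumour (limma adjusted p = 1), and the interaction was 0.49 ± 0.40 (limma adjusted p = 0.859), with 0.21 and 0.90 without them in turn.

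Cyp4f13 had 540, 664 and 557 in tumour-free WT livers, 426, 409 and 299 in tumour-bearing WT livers, 702, 531 and 483 in tumour-free KO livers and 1408, 466 and 533 in tumour-bearing KO livers. The highest value of the 12 was again in the shallowest library. The tumour differences were −0.64 ± 0.35 (SE) in WT and 0.32 ± 0.35 in KO (limma adjusted p = 0.688), and the KO value was −0.18 without that library and up to 0.62 without another. Between genotypes with a tumour the difference was 0.91 ± 0.35 (limma adjusted p = 0.273), or 0.42 without it, although the 3 KO livers all lay above the 3 WT livers. The genotypes differed by −0.05 ± 0.35 without a tumour (limma adjusted p = 1), and the interaction was 0.96 ± 0.50 (limma adjusted p = 0.859), or 0.46 without the shallowest library.

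Cyp4f15 was the member with the largest knockout difference relative to its error in tumour-free livers. It had 2415, 2255 and 2202 in WT without a tumour, 1908, 2284 and 1639 in WT with a tumour, 3702, 2636 and 3903 in KO without a tumour and 1184, 1841 and 2043 in KO with a tumour. In tumour-free livers all KO values lay above all WT values, a log2 difference of 0.56 ± 0.23 (SE) that did not pass (limma adjusted p = 1). The tumour difference was −1.03 ± 0.23 in KO (limma adjusted p = 0.283), lower in 3 of 3 livers, and −0.25 ± 0.23 in WT, where the groups overlapped. The interaction was −0.78 ± 0.32 (limma adjusted p = 0.859), opposite in sign to that of Cyp4a10. With a tumour KO differed from WT by −0.23 ± 0.23 (limma adjusted p = 0.631).

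Cyp4v3, the mouse counterpart of human CYP4V2, a hydroxylase whose loss causes Bietti crystalline dystrophy of the retina, had 7177, 6726 and 6144 in tumour-free WT livers and 4730, 4326 and 4800 in tumour-bearing ones, groups that did not overlap and differed by −0.53 ± 0.18 (SE). In KO it had 8894, 6648 and 6028 without a tumour and 4899, 4814 and 6051 with one, a difference of −0.44 ± 0.18 (limma adjusted p = 0.370), or −0.28 without KO tumour-free replicate 1. KO minus WT was 0.09 ± 0.18 in tumour-free livers (limma adjusted p = 1) and 0.18 ± 0.18 in tumour-bearing livers (limma adjusted p = 0.638), and the interaction was 0.09 ± 0.26 (limma adjusted p = 0.953). With a tumour the 3 KO livers lay just above the 3 WT livers, 4814 being the lowest KO and 4800 the highest WT value.

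In the other 4 comparisons no member passed the test. In KO livers with against without a tumour limma called 0 of 8 members, and 5 were lower at an unadjusted p under 0.05 (Cyp4a10, Cyp4a14, Cyp4a32, Cyp4f15 and Cyp4v3), beside 7.58% of all genes. There 4 of 8 lay lower without overlap (Cyp4a10, Cyp4a14, Cyp4a32 and Cyp4f15), beside 9.48% of all genes. With a tumour, KO against WT gave 0 of 8 called higher, beside 0.0115% of all genes, and 4 higher at an unadjusted p under 0.05 (Cyp4a10, Cyp4a14, Cyp4f13 and Cyp4f14), beside 6.31%. There 2 of 8 did not overlap, Cyp4f13 and Cyp4v3, both higher in KO, beside 8.11%. Without a tumour limma called 0 of 8, beside 0% of all genes higher and 0.00575% lower. There 1 was higher at an unadjusted p under 0.05 (Cyp4f15), beside 0.978%, and 1 lay higher without overlap (Cyp4f15), beside 3.56%. The interaction called 0 of 8, beside 0% of all genes, and gave Cyp4a10 higher (beside 1.96%) and Cyp4f15 lower (beside 2.74%) at an unadjusted p under 0.05. The comparisons share libraries, so these counts are not independent of each other. All but the tumour in KO also use WT libraries by whose values the family was picked. In whole liver, fewer cells of a type and less RNA per cell cannot be told apart.

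The later steps of omega-oxidation were measured with a list of electron donors and of alcohol and aldehyde dehydrogenases, of which 11 genes were tested. This list and those below were chosen with earlier results of these data known. With a tumour in WT 1 of 11 fell, beside 0.247% of all genes. It was Aldh3a2, the fatty aldehyde dehydrogenase that acts after the Cyp4 enzymes, which fell by 2.06 ± 0.33 (SE) on the log2 scale (limma adjusted p = 0.0124). Of the 11, 10 had negative values, and the median was −0.48, against 0.00 for all genes. The call ended without WT tumour-free replicate 1 or 2 or WT tumour-bearing replicate 1 or 3, with limma adjusted p-values of 0.0772, 0.0677, 0.0842 and 0.0815. Aldh3a2 differed by −1.15 ± 0.33 in KO with a tumour (limma adjusted p = 0.324), where none of the 11 and none of all 17380 genes passed. Adh7 differed there by −2.37 ± 1.2 (limma adjusted p = 0.411), with −0.43 without KO tumour-bearing replicate 1 and −3.602 without replicate 2. With a tumour, 10 of 11 had higher values in KO than in WT, with a median of 0.65 against −0.12 for all genes, and none passed. Aldh3a2 differed there by 0.92 ± 0.33 (limma adjusted p = 0.248), or 0.60 without KO tumour-bearing replicate 2, Adh1 by 0.86 ± 0.23 (limma adjusted p = 0.168) and Aldh9a1, an aldehyde dehydrogenase, by 0.65 ± 0.20 (limma adjusted p = 0.205). Without a tumour Aldh3a2 differed by 0.00 ± 0.33 (limma adjusted p = 1), and the largest differences relative to their errors were those of Adh4, 0.42 ± 0.19, and Por, the reductase that feeds electrons to P450 enzymes, 0.52 ± 0.28 (limma adjusted p = 1 for both). The value of Por was 0.83 without WT tumour-free replicate 1 and 0.32 without replicate 3.

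Of 21 tested genes of peroxisomal oxidation 4 fell with a tumour in WT, beside 0.247% of all genes. They were Abcd3, a peroxisomal fatty acid transporter, by 1.43 ± 0.22 (SE; limma adjusted p = 0.0116), Acot4, a thioesterase of dicarboxylic acyl-CoAs, by 1.84 ± 0.29 (limma adjusted p = 0.0116), Acsl1, a long-chain acyl-CoA synthetase, by 1.12 ± 0.20 (limma adjusted p = 0.0231), and Crat, carnitine acetyltransferase, by 1.86 ± 0.35 (limma adjusted p = 0.0292). Each of the 4 calls ended without WT tumour-free replicate 1 or 2 or WT tumour-bearing replicate 1 or 3 (limma adjusted p from 0.0576 to 0.154), and that of Crat also without WT tumour-free replicate 3 (limma adjusted p = 0.0822) and on values rescaled to the same total (limma adjusted p = 0.0601). Ehhadh, the bifunctional enzyme that shortens dicarboxylic acids, differed by −1.86 ± 0.40 (limma adjusted p = 0.0547), and passed under several alternatives, among them a pseudocount of 10 (limma adjusted p = 0.0342) and leaving out WT tumour-bearing replicate 2 (limma adjusted p = 0.0138). In KO none of 21 passed, and none of all 17380 genes did. Acot4 differed by −1.40 ± 0.29 (limma adjusted p = 0.275), Abcd3 by −0.53 ± 0.22 (limma adjusted p = 0.372) and Ehhadh by −0.80 ± 0.40 (limma adjusted p = 0.410), or −0.42 without KO tumour-bearing replicate 3.

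With a tumour 20 of these 21 genes had higher values in KO than in WT, with a median of 0.53 against −0.12 for all genes, and none passed. Abcd3 differed by 0.92 ± 0.22 (limma adjusted p = 0.149), Acaa1b, a peroxisomal thiolase, by 1.71 ± 0.43 (limma adjusted p = 0.151), and Ehhadh by 0.89 ± 0.40 (limma adjusted p = 0.341), or 0.59 without WT tumour-bearing replicate 1 and 0.49 without KO tumour-bearing replicate 2. Without WT tumour-bearing replicate 2 Acaa1b passed (limma adjusted p = 0.0102). Without a tumour 11 of 21 were higher and 10 lower, and none passed. Amacr, which converts branched acyl-CoAs, differed by 0.44 ± 0.20 there, or 0.24 without KO tumour-free replicate 3, and Acsl1 by −0.29 ± 0.20 (limma adjusted p = 1 for both).

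Of 24 other tested PPARα targets 4 fell with a tumour in WT, beside 0.247% of all genes. Acot3 and Acot1, acyl-CoA thioesterases, had differences of −4.11 ± 0.45 (SE; limma adjusted p = 0.00157) and −4.64 ± 0.59 (limma adjusted p = 0.00321), and both passed in every alternative. Decr1, a reductase in the oxidation of unsaturated fatty acids, fell by 1.27 ± 0.22 (limma adjusted p = 0.0201) and Vnn1, a pantetheinase, by 1.82 ± 0.38 (limma adjusted p = 0.0432). The calls of Decr1 and Vnn1 ended without WT tumour-free replicate 1 or 2 or WT tumour-bearing replicate 1 or 3 (limma adjusted p from 0.0878 to 0.226), and that of Vnn1 also without any of the 3 tumour-free KO livers (limma adjusted p from 0.0516 to 0.0665), under both other scalings (0.0625 and 0.0619) and with the replicate number as a block (0.0553). In KO 17 of 24 had negative values, with a median of −0.28 against −0.08 for all genes. None of the 24 passed, and none of all 17380 genes did. Acot3 differed there by −1.61 ± 0.45 (limma adjusted p = 0.324) and Vnn1 by −1.13 ± 0.38 (limma adjusted p = 0.329), or −0.70 without KO tumour-bearing replicate 1.

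With a tumour 21 of the 24 had higher values in KO than in WT, with a median of 0.63 against −0.12 for all genes. Acot3 differed by 2.69 ± 0.45 (limma adjusted p = 0.0607) and Fabp1, the liver fatty acid-binding protein, by 1.93 ± 0.35 (limma adjusted p = 0.0727). Neither passed, whereas both did with a pseudocount of 10 (limma adjusted p = 0.0296 and 0.0403), without a filter, with library weights and without WT tumour-bearing replicate 2 (limma adjusted p = 0.0102 and 0.00147). Acot3 also passed after quantile normalization (limma adjusted p = 0.0468), with the replicate block (limma adjusted p = 0.0272) and without KO tumour-bearing replicate 1 (limma adjusted p = 0.0408). The interaction was 2.50 ± 0.63 for Acot3 and 1.90 ± 0.49 for Fabp1 (limma adjusted p = 0.859 for both). Without a tumour none of the 24 passed, with Angptl4 at 0.55 ± 0.39 (limma adjusted p = 1), or 0.19 without KO tumour-free replicate 3.

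**Figure D5:**
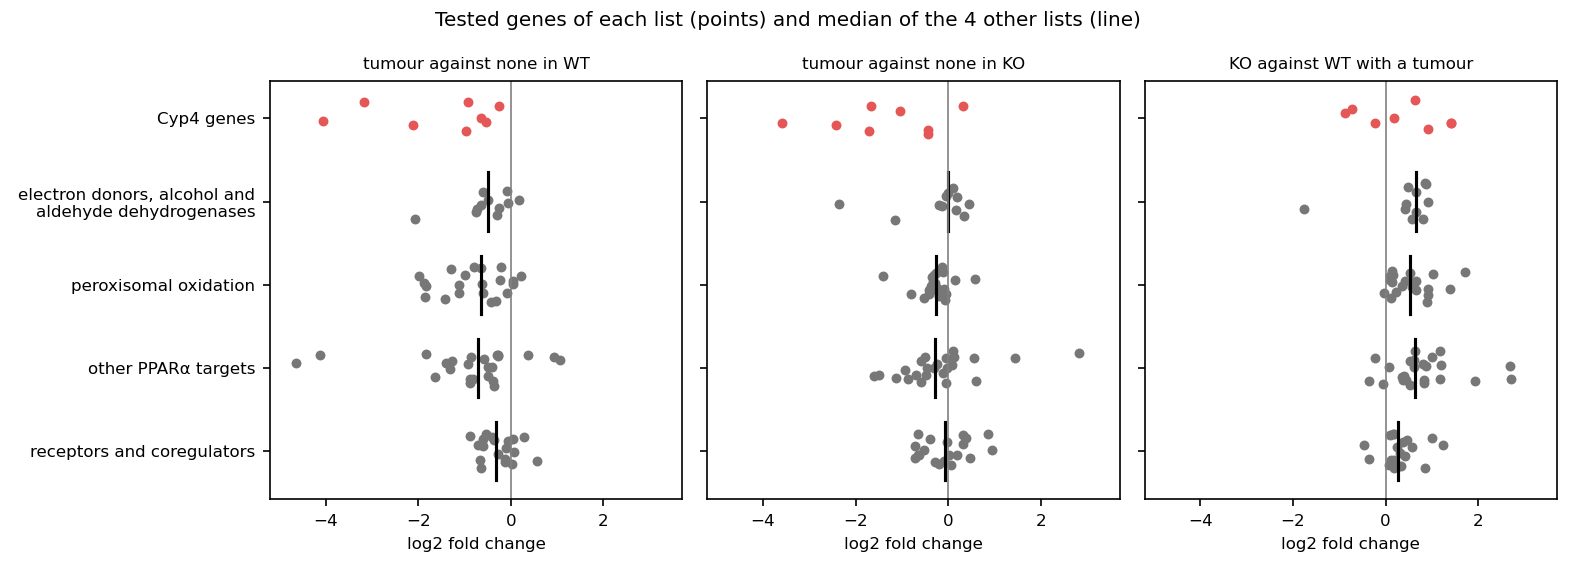
Log2 fold changes (horizontal axis) of the tested genes of 5 lists (rows) for the tumour in WT, the tumour in KO, and KO against WT with a tumour; each point is a gene, red for the Cyp4 genes, and black lines are the medians of the 4 other lists. The points of the metabolic lists lie mostly left of 0 for the tumour in WT and right of 0 for KO against WT with a tumour, where 20 of 21 peroxisomal genes have values above 0.

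Ppara, the gene of the receptor itself, had a signal of 5130 ± 1719 in tumour-free and 3197 ± 727 in tumour-bearing WT livers, and 5228 ± 2030 and 3770 ± 657 in the KO groups (SD, n = 3), and the groups overlapped. The tumour differences of Ppara were −0.65 ± 0.32 (SE) in WT (limma adjusted p = 0.628) and −0.39 ± 0.32 in KO (limma adjusted p = 0.579; −0.18 to −0.78 without single tumour-free KO libraries), and the genotypes differed by 0.25 ± 0.32 with a tumour (limma adjusted p = 0.720). Rxra signal was 5434 ± 1798 and 5355 ± 633 in WT and 5524 ± 1104 and 5741 ± 1098 in KO, and its differences lay between 0.02 and 0.09 in all 5 comparisons, with 95% intervals from −0.50 to 0.54 for the tumour in WT. None of the 20 receptors and coregulators tested passed in any comparison. The smallest p-values belonged in WT with a tumour to Esrra (−0.88 ± 0.30, limma adjusted p = 0.306) and Nr1i2 (−0.61 ± 0.24, limma adjusted p = 0.443), and in KO to Ncoa2 (−0.73 ± 0.21, limma adjusted p = 0.324) and Pparg (0.94 ± 0.34, limma adjusted p = 0.348). In KO against WT with a tumour they belonged to Cebpa (1.23 ± 0.28, limma adjusted p = 0.136) and Nr1h4 (0.85 ± 0.25, limma adjusted p = 0.196). Nr1h4 passed without WT tumour-bearing replicate 2 (limma adjusted p = 0.0434).

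The interaction passed for no gene of these lists. Beside Acot3 and Fabp1, the genes with the 2 smallest p-values in each list gave 0.87 ± 0.33 (SE) for Adh1, 0.60 ± 0.28 for Aldh9a1, 0.83 ± 0.28 for Acsl1, 1.45 ± 0.50 for Crat, 1.15 ± 0.39 for Cebpa and 0.47 ± 0.24 for Ncor1, each with a limma adjusted p of 0.859. Aldh3a2 gave 0.92 ± 0.46 and Ehhadh 1.06 ± 0.57 (limma adjusted p = 0.859 for both), or 0.59 and 0.67 without KO tumour-bearing replicate 2.

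The genes with the pattern most like Cyp4a10 were found by Pearson's r of log2(value + 1) over the 12 libraries. The search took 12267 tested genes with a mean signal of at least 50, less the members and unnamed gene models. The most similar were Aldh3a2 (r = 0.940), Acot1 (0.933), Sar1b (0.931), Acot3 (0.928), Hsdl2 (0.928) and Lrit1 (0.926), below the r of 0.964 for Cyp4a14. Within groups, after subtracting each group's mean, the r was 0.890 for Cyp4a14 and 0.611 for Aldh3a2. Among the genes most similar to Cyp4f14 were Ces3b (0.895), Igfals (0.882), Cyp27a1 (0.879), Hdgf (0.868) and Lipc (0.863). Cyp4a10 and Cyp4f14 had an r of 0.722 with each other and 0.079 within groups. These correlations are descriptions, since the 12 libraries share the group differences and the depth of each library.

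Other Cyp4 genes outside the 10 had low signals, and none of the 6 tested passed in any comparison. Cyp4b1 had 278 ± 73.4 and 269 ± 186 in WT livers without and with a tumour and 286 ± 74.7 and 724 ± 493 in KO livers (SD, n = 3), the last with 1290 in the shallowest library. Cyp4b1 differed in KO against WT with a tumour by 1.43 ± 0.49 (SE; limma adjusted p = 0.240), or 0.91 without that library. Cyp4x1 had 91.7 ± 21.8 and 122 ± 24.5 in WT and 110 ± 66.9 and 24.8 ± 21.5 in KO, and differed between the genotypes with a tumour by −3.41 ± 1.1 (limma adjusted p = 0.217), with a value of 0 in the shallowest library and a difference of −1.66 without it. Cyp4f17 peaked in that library too, at 599. Cyp4f16, Cyp4f18 and Cyp4f39 differed by −1.62 ± 0.57, 0.06 ± 1.7 and −0.54 ± 1.4 between genotypes with a tumour (limma adjusted p = 0.244, 0.991 and 0.872).

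Markers of other cell types and programmes moved with the tumour in the same libraries, and their part in the Cyp4 differences was not tested. Of 22 acute phase and cytokine response genes 13 rose in WT with a tumour, with a median of 1.73 on the log2 scale against 0.00 for all genes. In KO 19 of the 22 had higher and 3 lower values with a tumour, with a median of 0.88 against −0.08 for all genes. None of the 22 passed there, and none of all 17380 genes did. Of all 17380 genes, 5 to 301 rose in WT over the settings tried, and the number as reported is given in the closing section. The same numbers belong beside the counts of risen genes below. Of 13 female-biased liver genes 3 fell in WT, beside 0.247% of all genes. They were Cyp17a1, A1bg and Sult2a1, named here after their values were seen. In WT 0 of 11 male-biased genes and 0 of 15 genes of eicosanoid metabolism passed. The 10 neutrophil markers, 4 of them tested and none called, summed to 363 to 706 in WT tumour-bearing livers and to 54.2 to 285 in the other 9, and Camp was at 0 outside the WT tumour-bearing group. Stellate and fibroblast markers summed to 17180 to 21405 in tumour-bearing and 10076 to 12715 in tumour-free WT livers, and to 13228 to 16222 and 10536 to 12169 in KO livers, and 2 of 5 rose in WT. Erythroid markers summed to 4802 to 7204 and 1583 to 2998 in WT with and without a tumour, and 1 of 4 rose. In KO they summed to 1668 to 6466 and 1527 to 3240. In the same order, endothelial markers summed to 7135 to 8331 and 4131 to 6065 in WT, and to 7833 to 14134 and 5568 to 6295 in KO. Mammary epithelium markers summed to 4262 to 5437 and 2134 to 2873 in WT, and to 2623 to 5780 and 2332 to 2711 in KO. The highest KO sum of each was in the shallowest library. No endothelial or mammary epithelium marker passed. Of the 6 hepatocyte markers none passed, and 3 had higher and 3 lower values in WT with a tumour. Their sum, most of it albumin, was 3092100 to 3544900 in tumour-bearing and 2257800 to 2510000 in tumour-free WT livers as deposited. On values rescaled to the same total the means were 3394500 and 2397100. After quantile normalization they were 2900100 and 2858400, but that scaling gives the gene of each rank the same value in every library. It therefore cannot show whether a sum held by top-ranked genes differed.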

How the data were processed

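RNA sequencing of 12 livers was analysed. The deposited table holds the authors' normalized signal, reads scaled by library size factors, as its name states, and not log-transformed. The submitters' processing notes name STAR 2.7.8a, Partek, DESeq2 and build mm39. The sources used here do not give the counting program, annotation release, filters or strand setting. Every column matched 1 sample (0 were left over), and gene ends were taken as 1 base before the deposited stop.

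Steps between low values gave each library's depth. Between 78.0% and 85.1% of low values, those of up to 20 reads, were whole multiples of a read within 0.01 reads, so no count model was used. The 17380 genes reaching 10 in 3 or more libraries were tested on log2(value + 1), which understates changes of low genes, with limma 3.58.1 in R 4.3.3 (mean-variance trend, 12 libraries in 1 fit, a mean per group). Two-sided p-values, Benjamini-Hochberg adjusted over all genes, were held to a threshold of 0.05. The script was tested on simulated data. Alternatives were another pseudocount (10), no filter, 2 rescalings, fits of 6 libraries alone, library weights, robust eBayes, a replicate block, and left-out libraries.

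The members and gene lists were chosen with earlier results of these data known. All members were named. A rule named, per list and comparison, up to 4 genes past the test or else the 2 with the smallest p, together with Ppara, Rxra, Aldh3a2, Ehhadh and the other Cyp4 genes, and some genes it picked are not reported here. After values were seen, its use was narrowed to 5 lists, with the other lists given by counts, and for the other Cyp4 genes and the interaction not every value is given. Alternatives for genes outside the family, the shared-window measure and the haem-binding stretch were also added then. Biopython 1.88 aligned the coding sequences, matplotlib 3.10.9 drew the figures, and tables were handled with numpy 2.4.6 and pandas 2.3.3 in Python 3.11.15.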

Additional observations from a re-analysis of the deposited data

How the results depend on the processing

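Most fold changes were kept (2579 values under alternatives, members and other named genes together), 85 changed sign, 39 gained and 39 lost a call. Kept means the same direction and side of the threshold, except for members with a tumour in WT. For these it means a shift smaller than the gene's spread within groups, so calls they gained or lost are not counted. Depth limits the low members Cyp4a31, Cyp4a32, Cyp4a12a and Cyp4a12b, and groups of 3 limit every test. The count of 2 members called lower with a tumour in WT, which describes the choice of the family and tests nothing, was 1 with robust eBayes and 1 to 3 when single libraries were left out. With a tumour in KO there were 1 with library weights and 1 with 6 libraries fitted alone, and 0 to 1 without single libraries. In KO against WT with a tumour there were 2 with library weights, and 0 to 2 without single libraries. The cause was not tested. The summed signal of Cyp4a10, Cyp4a31 and Cyp4a32 in tumour-free KO livers was 9686 after quantile normalization. Counts over all genes moved by more than 1.5 times: for the tumour in WT from 75 higher and 43 lower to 301 and 209 with library weights, to 25 lower after rescaling, and to 5 to 131 higher and 6 to 77 lower without single libraries. For KO against WT with a tumour they moved from 2 higher and 2 lower to 813 and 851 with library weights, 129 and 82 without WT tumour-bearing replicate 2, 8 and 9 with a pseudocount of 10, 9 and 7 without a filter, 4 and 5 after quantile normalization, 2 and 4 after rescaling, 0 and 0 with 6 libraries alone, and 6 lower with robust eBayes. Library weights called 10 genes higher and 4 lower for the tumour in KO, and 6 libraries alone called 1 lower. Same-numbered libraries correlated at −0.094 to 0.10 in their deviations and others at −0.103 to 0.146. These ranges overlap and show no pairing by number, but with groups of 3 they cannot exclude one. The numbers are those of the titles. The descriptions number the tumour-free KO libraries 1, 3 and 4, and no fit was made with those. The replicate block left the members called as they were, with 7 higher and 6 lower genes for KO against WT with a tumour.

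These fold changes changed sign without single libraries. In KO against WT without a tumour the ranges were −0.43 to 0.12 (Cyp4a10), −0.24 to 0.33 (Cyp4a14), −0.47 to 0.79 (Cyp4a31), −0.21 to 0.063 (Cyp4f13), −0.075 to 0.21 (Cyp4v3), −0.11 to 0.27 (Cyp4b1), −0.44 to 0.10 (Cyp4f17), −1.77 to 0.40 (Cyp4f18), −0.34 to 0.49 (Cyp4x1), −0.30 to 0.38 (Ppara), −0.091 to 0.31 (Rxra) and −0.25 to 0.16 (Aldh3a2). In KO against WT with a tumour they were −2.01 to 0.82 (Cyp4a32), −0.38 to 0.010 (Cyp4f15), −1.36 to 1.504 (Cyp4f18), −1.23 to 0.82 (Cyp4f39) and −0.011 to 0.26 (Rxra). For the tumour in WT they were −0.75 to 0.059 (Cyp4b1), −0.49 to 2.07 (Cyp4f18), −0.84 to 1.505 (Cyp4f39) and −0.12 to 0.28 (Rxra), and in KO −0.18 to 0.62 (Cyp4f13) and −0.11 to 0.23 (Rxra). For the interaction they were −2.60 to 0.23 (Cyp4a32), −0.026 to 0.25 (Cyp4v3), −0.86 to 1.999 (Cyp4f18), −0.22 to 0.21 (Rxra) and −0.13 to 0.55 (Ppara).

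Other settings turned signs too. Without a tumour, rescaling gave −0.046 (Aldh3a2) and −0.016 (Cyp4b1), quantile normalization −0.022 (Aldh3a2), 0.0034 (Ppara) and −0.0083 (Cyp4b1), and library weights 0.015 (Cyp4f13), 0.33 (Cyp4a31), −0.081 (Cyp4b1), 0.11 (Cyp4a14) and −0.13 (Cyp4x1). Library weights gave −0.11 for the tumour in KO (Cyp4f13), 0.25 (Cyp4f39), 1.15 (Cyp4a32) and 0.051 (Cyp4f15) for KO against WT with a tumour, and 0.48 (Cyp4a32) for the interaction. Without KO tumour-bearing replicate 1 and KO tumour-free replicate 3 together, values were −0.29 (Cyp4f13) for the tumour in KO, and 0.35 (Cyp4f18), −0.070 (Aldh3a2), 0.063 (Cyp4f13), −0.11 (Cyp4b1) and −0.34 (Cyp4x1) for genotype without a tumour. They were 0.82 (Cyp4f39), 0.82 (Cyp4a32) and 0.010 (Cyp4f15) for genotype with a tumour, and −0.0042 (Rxra) and 0.68 (Cyp4a32) for the interaction.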
